A study of Homo sapiens with 6 samples.

Results

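The CHD genes, CHD1 to CHD9, and ATRX encode chromatin remodellers of the SNF2 family, and their polyadenylated 3′ ends were examined in IMR-32 cells. Their members were the peaks of the deposited poly(A) 3′-seq list whose summit lay in the body of one of these 10 genes or up to 4 kb past its 3′ end. This gave 326 of the 200023 peaks of the list, and 255 of them had a −log10 q-value of at least 5 and formed the main set. IMR-32 is an established human neuroblastoma cell line, and THZ531 is a covalent inhibitor of the transcription kinases CDK12 and CDK13. The 6 libraries came from 3 groups with 2 replicates each: a DMSO (solvent) group, a group exposed to THZ531 at 400 nM over 2 h and one exposed at the same dose over 6 h. The study called peaks once on merged reads, taken here to be these 6 libraries, so each value below is for all libraries together. The treatments cannot be compared, no replicate error can be given for any peak, and the depth of each library is unknown.

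CHD proteins pair chromodomains, which bind histone tails, with an ATPase motor that moves nucleosomes along DNA. CHD1 and CHD2 (subfamily I) act along transcribed genes. CHD3, CHD4 and CHD5 (subfamily II) are alternative motors of the NuRD complex, which couples remodelling to histone deacetylation. CHD6, CHD7, CHD8 and CHD9 (subfamily III) are the largest of the family, and CHD7 and CHD8 are known from neurodevelopmental disorders. ATRX works with DAXX to place a histone variant in heterochromatin and at telomeres, and its loss is a recurrent event in neuroblastoma. Each of these genes spreads its coding sequence over many exons, so the position of an intronic end sets how much of the protein a transcript could encode.

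With the kit used, reads begin where the poly(A) tail was joined to the transcript, so the edge of a peak nearest the 3′ end of the gene, called the 3′ edge here, marks the cleavage site farthest downstream in the peak. The study extended each read to 100 bp, so reads over a summit that lies farther than this from the edge ended before it. This was so for 34 of the 255 peaks of the main set (13.3%, 95% Wilson interval 9.70 to 18.1), against 11.2% over all protein-coding genes, and the median distance was 66 bases. The sequences below show what lies at the 4 tallest intronic peaks outside CHD7 whose summit was less than 100 bases from the edge, that carried the canonical polyadenylation signal AATAAA and that had fewer than 18 A in any 25 bases of genome behind them. They are GRCh38 sequences on the strand of the gene, with 100 bases before the 3′ edge and 50 bases after it, and the capitals mark the AATAAA nearest to that edge.
CHD3, 62 reads, chr17:7887540-7887689, plus strand: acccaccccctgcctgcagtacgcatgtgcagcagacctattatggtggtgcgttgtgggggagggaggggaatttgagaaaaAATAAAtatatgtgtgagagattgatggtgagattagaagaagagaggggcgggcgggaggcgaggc
CHD9, 46 reads, chr16:53132238-53132387, plus strand: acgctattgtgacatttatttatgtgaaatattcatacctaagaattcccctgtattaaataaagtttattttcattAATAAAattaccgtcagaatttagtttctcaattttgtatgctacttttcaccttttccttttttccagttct
CHD2, 46 reads, chr15:92899601-92899750, plus strand: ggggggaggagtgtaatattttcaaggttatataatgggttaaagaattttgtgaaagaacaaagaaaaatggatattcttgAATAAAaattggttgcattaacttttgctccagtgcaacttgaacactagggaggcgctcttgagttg
CHD2, 44 reads, chr15:92898657-92898806, plus strand: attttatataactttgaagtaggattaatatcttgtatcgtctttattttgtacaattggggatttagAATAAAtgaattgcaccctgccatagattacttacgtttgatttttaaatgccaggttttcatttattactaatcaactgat
In these sequences the first A of AATAAA lay 17 bases before the 3′ edge in CHD3, 23 in CHD9, and 18 and 32 in CHD2. The summits lay 54 to 74 bases before it. The 3′ edges of the CHD2 peaks of 46 and 44 reads lay 1 base before and 13 bases past annotated ends of CHASERR. That gene overlaps CHD2 on the same strand. Both peaks lay before the canonical start of CHD2, and their reads cannot be told apart from CHASERR ends.

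Next, the 30 bases that end at the 3′ edge are shown for the tallest peak of the last exon that held AATAAA or ATTAAA in that stretch, for 5 genes that had one.
CHD1, 24 reads, chr5:98855208-98855237, minus strand: gttatatatgacaaATTAAAtttaagaaaa
CHD4, 82 reads, chr12:6570085-6570114, minus strand: gaaaattgaaAATAAAagtttccttgtatt
CHD5, 16 reads, chr1:6101785-6101814, minus strand: ttAATAAAtcctttgggaaaggatttaatc
CHD8, 21 reads, chr14:21385193-21385222, minus strand: attAATAAAtttaagttaatccttttccac
CHD9, 37 reads, chr16:53327473-53327502, plus strand: ttATTAAAcatattctttgactacccatga
The hexamer began 16 to 28 bases before the edge in these 5 peaks. They were chosen for a hexamer within 30 bases, so this range cannot be set against the intronic distances. The summit lay 104 bases before the edge in CHD4, just beyond an extended read, and 55 to 85 bases before it in the others.

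The genes of subfamily I lie at chr5:98853985-98929007 (CHD1, minus strand) and chr15:92886203-93027996 (CHD2, plus strand) of GRCh38. Those of subfamily II lie at chr17:7884796-7912760 (CHD3, plus), chr12:6570082-6614524 (CHD4, minus) and chr1:6101787-6180321 (CHD5, minus). Those of subfamily III lie at chr20:41402083-41618384 (CHD6, minus), chr8:60678740-60868028 (CHD7, plus), chr14:21385194-21456126 (CHD8, minus) and chr16:53054991-53329150 (CHD9, plus), and ATRX lies at chrX:77504880-77786233 (minus). The peak list gives no strand, so each peak was read on the strand of its gene.

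The longest genes held the most peaks. CHD9, 274 kb long, held 51 peaks of the main set, ATRX, 281 kb, held 45, CHD7, 189 kb, held 34 and CHD6, 216 kb, held 30. CHD2, 142 kb, held 29, CHD8, 70.9 kb, held 21 and CHD1, 75.02 kb, held 16. The NuRD motors held the fewest, with 11 in CHD3 (28.0 kb), 10 in CHD4 (44.4 kb) and 8 in CHD5 (78.5 kb). Reads at the summit, the number of reads over the highest position of a peak as recovered from the deposited values, ran from 6 to 82 with a median of 15. These heights count distinct start positions of reads, so tall peaks are compressed. The Poisson intervals given on them below cover counting error only. They treat each height as a plain count and make no allowance for this compression.

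**Figure D1:**
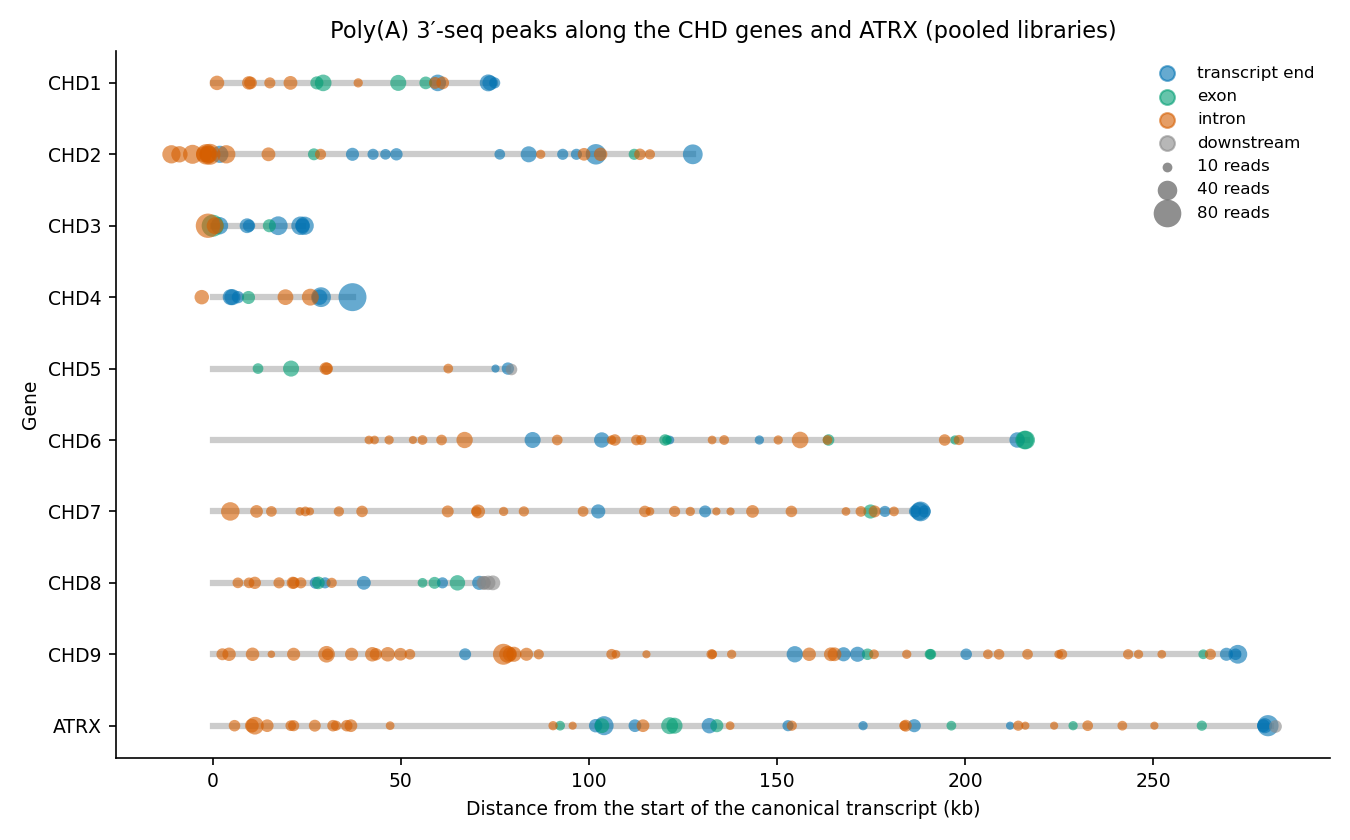
Peaks of the main set along each gene, by distance from the start of the canonical transcript in kb. Each circle is 1 peak, its area gives the reads at the summit, its colour gives the class, and the grey bar is the canonical transcript. CHD2 and CHD3 carry their tallest intronic peaks before the canonical start, and the CHD9 peaks of its long first intron cluster near 80 kb, with 46 reads in the tallest.

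A summit was classed as a transcript end if it lay from 200 bp before to 600 bp after the end of any annotated transcript, and otherwise as exonic, intronic or downstream of the gene. Introns held 149 of the 255 peaks, or 58.4% (95% Wilson interval 52.3 to 64.3), against 64% of the 134015 pairs of a peak and a protein-coding gene over all such genes. Transcript ends held 66 peaks, or 25.9% (20.9 to 31.6), against 20.2% over all protein-coding genes. Exons held 34 and the stretch downstream held 6. All intervals on shares cover counting error only. Of the 66 peaks at transcript ends, 44 lay away from the last exon of the canonical transcript, at ends annotated for shorter transcripts. These internal ends made up 17.3% of the peaks (13.1 to 22.4), against 6.68% over all protein-coding genes. Ends annotated as incomplete were included. The number of annotated transcripts, each with its own window, ran from 6 in CHD5 to 54 in CHD4. The 6.68% is not matched for that number.

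All 10 genes had a peak at an annotated transcript end, which 64% of the 20046 protein-coding genes had, and are called detected in this sense. In 8 of the 10 a peak lay in the window around the end of the canonical transcript. CHD6 and ATRX had none there. No share over all protein-coding genes is set beside this count of 8. CHD6 had 2 peaks of 36 reads each just before that window, 226 and 536 bp before the canonical end, in its 3′ untranslated region. ATRX had its tallest peak, of 47 reads (exact Poisson 95% interval 34.5 to 62.5), 906 bp before the canonical end, and a further peak of 17 reads lay 854 bp past it, with AATAAA 26 bases before its edge.

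The tallest peak in the last exon or at the canonical end, the terminal region, differed widely among the genes. CHD4, the motor of NuRD that most cell types use, had the tallest, with 82 reads (65.2 to 101.8) at chr12:6570085-6570454. ATRX followed with 47 reads, then CHD2 and CHD7 with 41 each, CHD9 with 37, CHD3 and CHD6 with 36 each and CHD1 with 30 (20.2 to 42.8). CHD8, a regulator of Wnt target genes, had 21 reads (13.0 to 32.1), and CHD5, a neural NuRD motor and tumour suppressor, had 16 (9.15 to 25.98). The interval of CHD4 lay above those of the other 9 genes. Below CHD4, the interval of each gene overlapped that of the next in this order.

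In 5 genes the tallest intronic peak had more reads than the tallest peak at any annotated transcript end, whereas this was so in 27.6% of the 12566 detected genes with an intron. Among detected genes of at least 70 kb it was 42.7%, and 4 of the 8 CHD genes and ATRX of that length were of this kind. The 5 genes were CHD2 with 46 against 44 reads, CHD3 with 62 against 37, CHD5 with 17 against 16, CHD6 with 29 against 27 and CHD9 with 46 against 37. The Poisson intervals of both peaks overlapped in each of them, by the least in CHD3, where they ran from 47.5 to 79.5 and from 26.1 to 51.0. The only gene whose intervals did not overlap was CHD4, with 30 reads (20.2 to 42.8) in its tallest intronic peak and 82 at its end. Set against the terminal region, CHD6 changed sides, with 36 against 29 reads, and 4 genes remained, a share to be read beside 26.7% of genes with a terminal peak and an intron. By the deposited fold enrichment, which divides by the local background, 1 gene was left, CHD6, with 18.8 against 16.6.

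**Figure D2:**
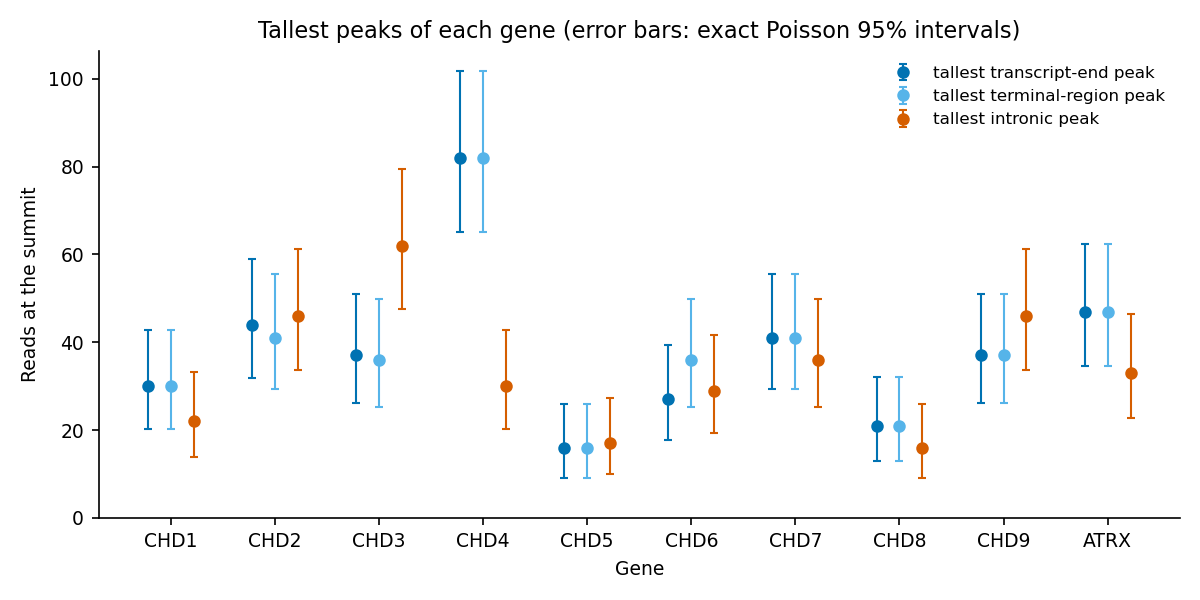
Reads at the summit (vertical axis) of the tallest transcript-end, terminal-region and intronic peak of each gene, with exact Poisson 95% intervals as error bars. CHD4 stands apart with 82 reads at its end and 30 in an intron, and in the other 9 genes the intervals overlap.

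Every gene had at least 1 intronic peak, as did 79.4% of detected genes with an intron. Because long genes have more, each gene was set beside the detected genes in its own of 20 bins of gene length. The count lay above the median of the bin in 7 of the 10 genes, against 39.3% of detected genes. That share is over all 20 bins, and in those of the shortest genes the median is 0 and most genes tie with it. It is therefore not matched in length to the 10 genes. CHD9 had 39 intronic peaks against a median of 16 in its bin (lower quartile 9, upper quartile 23), which put it at percentile 98.0 among 628 genes. CHD7 had 26 (percentile 82.9), ATRX had 25 (80.1) and CHD6 had 19 (60.2) in the same bin. CHD2 had 16 against a median of 14, and CHD1 and CHD8 had 8 each against a median of 7. The 3 NuRD motors were the ones below their medians, CHD3 with 2 against 3, CHD4 with 3 against 5 and CHD5 with 3 against 7, at percentile 15.8. Of the 16 peaks of CHD2, 8 lay inside CHASERR, an overlapping gene described below. When peaks at places with another annotated gene were left out, CHD2 fell below its median, with 8 against 10 (percentile 37.9). With that rule 6 genes were above their medians. The order changed when the length of intron was counted: per 100 kb of intron, CHD8 had 16.01 peaks, CHD7 15.3, CHD9 15.1, CHD2 13.3, CHD1 12.5, CHD3 11.8, ATRX 9.67, CHD4 9.45, CHD6 9.39 and CHD5 4.38. This density is lower in longer genes, with a bin median of 12.1 for CHD3 and 7.58 for CHD6. Within their bins CHD3 was at percentile 48.4 of this density and CHD6 at 64.1.

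**Figure D3:**
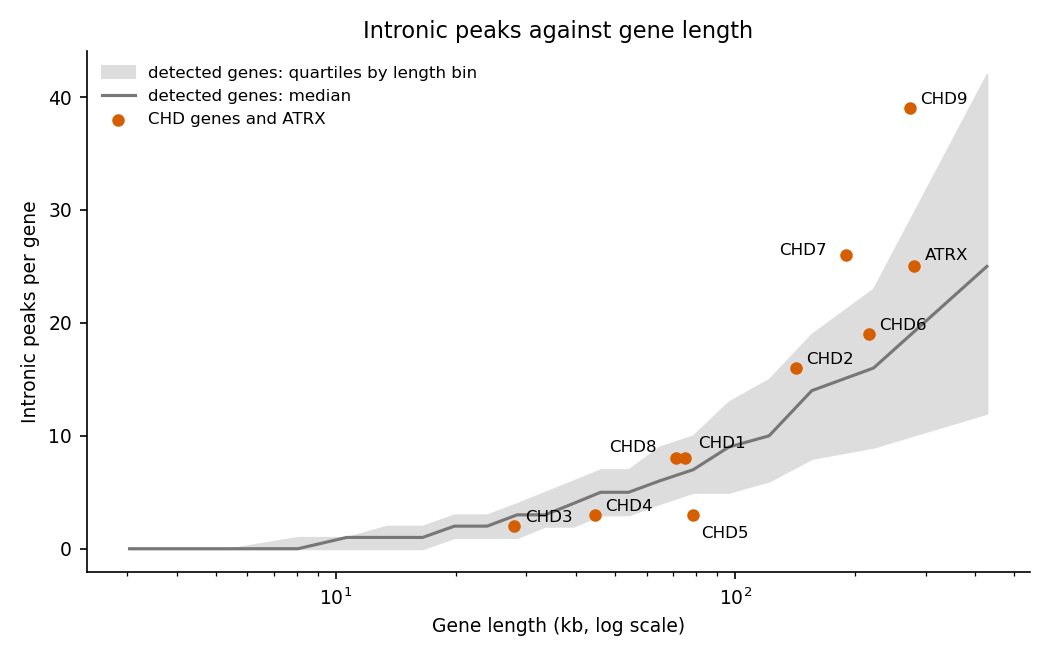
Intronic peaks of the main set per gene against gene length in kb on a log scale. The line and band give the median and quartiles of detected protein-coding genes in 20 bins of length. CHD9, with 39 peaks, lies above the upper quartile of its bin (23), and CHD5, with 3, lies below the lower quartile of its bin (5).

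First introns held 56 of the 139 intronic peaks that lay in an intron of the canonical transcript, or 40.3% (32.5 to 48.6). For the same peaks, first introns made up 29.3% of the intronic bases of their genes on average. Over all protein-coding genes the share was 31.6% on 26.3% of the bases. The members did not share this pattern evenly. In ATRX, 12 of 25 intronic peaks (48.0%, 30.03 to 66.50) lay in intron 1, which holds 25.4% of its intronic bases, and in CHD8 it was 7 of 8 (87.5%, 52.9 to 97.8) on 38.7% of the bases. In CHD9 it was 19 of 39 (48.7%, 33.9 to 63.8) on 38.6%. In CHD6 (7 of 19) and CHD7 (9 of 26) the shares, 36.8% and 34.6%, were close to the 32.6% and 35.0% of the bases in intron 1. CHD2, CHD4 and CHD5 had no peak in their first intron, which spans 0.342 kb in CHD2, 0.848 kb in CHD4 and 11.7 kb in CHD5.

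The coding sequence before these peaks was short. In CHD6, CHD7, CHD8 and CHD9 no codon precedes the end of intron 1, and in ATRX 6 of the 2492 codons do. Of all 139 intronic peaks, 43 (30.9%, 23.9 to 39.0) had no codon upstream, against 14.3% over all protein-coding genes. At most 10% of the codons lay upstream of 66 of the peaks (47.5%, 39.4 to 55.7), against 35.2% over all protein-coding genes.

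CHD9 had the most intronic peaks and the most in a first intron. That intron is 100.8 kb long, and its 19 peaks had 6 to 46 reads with a median of 18, whereas the peaks of its later introns had a median of 10.5 and at most 20 reads. A group of 5 peaks with 46, 30, 21, 24 and 18 reads lay within 77.3 to 83.4 kb of the start. Around these 5 summits the read count in the surrounding 10 kb, which the peak caller used as its background, was 434, 434, 447, 446 and 353. The median was 156 reads per 10 kb over all 19 peaks of the first intron and 70.5 over those of the later introns. High values were also found later, with 367, 279 and 275 at 3 intronic peaks between 158.5 and 165.3 kb from the start. The tallest of the group is the CHD9 sequence printed above, at chr16:53132067-53132337, and the intronic peak nearest the start lay 2.63 kb into the gene with 15 reads and 21 A among 25 bases behind its edge.

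ATRX showed a similar layout. Its 12 peaks in intron 1 had 8 to 33 reads and lay between 5.84 and 47.2 kb from the start, in an intron of 68.7 kb. Of these 12, 10 carried a hexamer, 5 had AATAAA and none had a stretch of A behind it by the looser rule below. Their median background was 142 reads per 10 kb, against 37 in later introns. The tallest lay 11.3 kb from the start, and its summit was 249 bases before its 3′ edge, so the AATAAA found 15 bases before that edge does not belong to its 33 reads. The nearest, of 14 reads, lay 5.84 kb from the start.

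CHD7, the gene mutated in CHARGE syndrome, had its tallest intronic peak, of 36 reads (25.2 to 49.8), as the one nearest the start, 4.72 kb into the gene. It had AATAAA 21 bases before its edge, and by height it followed the second CHD2 peak of the printed set. The next peaks in intron 1 had 17 and 12 reads, and the rest had 7 to 15. CHD6 had no peak of the main set in the first 41.6 kb of its transcript, and the intronic peak found there, its nearest to the start, had 8 reads. Its tallest intronic peaks had 29 reads, in intron 17 at chr20:41462175-41462336 and after 888 of 2715 codons, and 28 reads at the end of intron 1. In CHD8 the 8 intronic peaks were all low, with 11 to 16 reads, and the 2 tallest, of 16 reads each, lay 11.2 and 21.3 kb from the start. The nearest, of 12 reads, lay 6.74 kb from it.

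The CHD2 gene overlaps CHASERR, a long non-coding RNA transcribed in the same direction from just upstream, which is known to repress CHD2 in cis. Of its 16 intronic peaks, 8 lay inside CHASERR and before the canonical start of CHD2. The nearest to the gene start, 10.9 kb before the canonical start, had 35 reads. The 8 peaks had 27 to 46 reads with a median of 33.5, and the other 8 had 9 to 35 with a median of 15.5. The 3′ edge of the 46-read peak, at position 92899700, lay 1 base before the annotated end of CHASERR, at 92899701. The edge of the 44-read peak lay 13 bases past another annotated CHASERR end. These reads cannot be told apart from the ends of CHASERR in a list with no transcript names, and without peaks at places with another annotated gene CHD2 was not among the genes with a taller intronic peak. Past the CHASERR region, the tallest peak of CHD2, of 44 reads, lay in a coding exon at an internal annotated end after 1384 of 1828 codons.

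In subfamily II most peaks were not in introns. CHD3 had its tallest peak, of 62 reads (47.5 to 79.5), 1.22 kb before its canonical start at chr17:7887326-7887639, in an intron of a longer annotated transcript, and a peak of 51 reads over its first exon. The background there was 838 and 763 reads per 10 kb, against 367 at the tallest terminal peak of the gene. CHD4 had a peak of 41 reads at an internal end 8.47 kb before its canonical end, and 9 of its 10 peaks lay inside another annotated gene as well, in each case one on the same strand. Only 8 of the 10 had no gene on the opposite strand. Its tallest intronic peak, of 30 reads, lay in intron 31 and also inside a gene on the opposite strand. In a list without strand its reads cannot be assigned to either. The intronic peak of CHD4 nearest the start, of 22 reads, lay 2.86 kb before the canonical start. CHD5 had 2 intronic peaks of 17 and 15 reads close together in intron 7, and its tallest peak, of 27 reads, lay over a coding exon and inside another annotated gene on the same strand. The taller of the intronic pair, 30.1 kb from the start, was also the nearest to it. Its downstream peak of 14 reads lay in KCNAB2, on the opposite strand, and 3 of the 4 downstream peaks of CHD8 lay in SUPT16H, the next gene on the same strand.

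CHD1, which reads a mark of active promoters, had its 8 intronic peaks at 9 to 22 reads. The tallest was also the nearest to the start, 1.19 kb into the gene, with 334 reads in the surrounding 10 kb and no hexamer. In intron 2, 2 peaks of 19 and 13 reads had AATAAA, 26 and 19 bases before their edges. Its tallest terminal peak, of 30 reads, lay 1.77 kb before the canonical end.

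Peaks inside coding exons were common in these genes. The summit lay in a coding exon of the canonical transcript for 49 of the 255 peaks, or 19.2% (14.9 to 24.5), against 4.38% over all protein-coding genes. Their coding sequences are long, with 1710 to 2997 codons. Per kb of coding sequence the 10 genes had 0.707 such peaks together, and the 726 detected genes of at least 1500 codons had 0.243. Among those with a transcript-end peak of at least 16 reads, the lowest value of the 10 genes, it was 0.279. All 10 genes lay above the median of the 726, which was 0.153 per kb. ATRX had 14 such peaks, or 1.87 per kb, the highest of the 726 genes, CHD2 had 6 (1.09 per kb, rank 23) and CHD9 had 8 (0.920, rank 39). CHD7 was the lowest of the 10 with 0.334 per kb, at percentile 69.2.

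In ATRX, 3 of these peaks, with 38, 23 and 19 reads, lay 102 to 104 kb from the start, where the surrounding 10 kb held 384, 377 and 362 reads. The tallest of them spanned 740 bp, at chrX:77681761-77682500, after 1024 codons. Over the 49 peaks the reads ran from 7 to 44, and 23 were counted as transcript ends because a shorter annotated transcript ends nearby. AAGAAA was among the hexamers at 19 of the 49 (38.8%), against 27.2% of coding-exon peaks over all protein-coding genes, and AATAAA was at 6 (12.2%), against 15.7%. The densest stretch of A behind the edge had a median of 13 A in 25 in both sets. Whether A-rich coding sequence primed these reads was not tested.

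To find peaks with a known polyadenylation signal, the 100 bp before the 3′ edge were scanned for the 12 hexamers that the study lists. These were AATAAA or ATTAAA or AGTAAA or TATAAA or AATATA or AATACA or CATAAA or GATAAA or AATGAA or ACTAAA or AAGAAA or AATAGA, and a window could hold several. At least 1 was present at 159 of the 252 peaks with no gene on the opposite strand, or 63.1% (57.0 to 68.8), which equals the 63.1% over all protein-coding genes. Searching the other strand at these peaks gave 45.6% (39.6 to 51.8). AATAAA alone was present at 64 peaks, or 25.4% (20.4 to 31.1), against 31.4% over all protein-coding genes and 9.92% (6.81 to 14.23) on the opposite strand. The shares with any hexamer ran from 5 of 11 in CHD3 to 36 of 51 in CHD9 and 5 of 7 in CHD5.

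The classes differed. In introns 56.8% of the peaks had a hexamer (48.7 to 64.5), with 47.3% (39.4 to 55.3) on the opposite strand, and the intervals overlapped. AATAAA set the strands apart more clearly there, with 34 of 148 peaks, or 22.97% (16.93 to 30.38), against 10, or 6.76% (3.71 to 11.99). Over all protein-coding genes these intronic shares were 27.2% and 9.20%. In terminal regions 20 of 24 peaks had a hexamer (83.3%, 64.1 to 93.3), close to the 84.0% over all protein-coding genes. On the opposite strand of these 24 it was 62.5% (42.7 to 78.8), and the intervals overlapped. At transcript ends of any kind it was 70.8% (58.8 to 80.4), below the 80.7% over all protein-coding genes, and AATAAA was at 27.7% (18.3 to 39.6) against 49.1%. Where AATAAA was found before an intronic peak, its first base lay a median of 21 bases from the edge. It was between 10 and 40 bases from it in 27 of 34 peaks (79.4%). In 6 of these 34 the summit lay 100 bases or more from the edge. Over all protein-coding genes the median distance of AATAAA before intronic peaks was 24 bases, and 68.5% lay in that range.

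**Figure D4:**
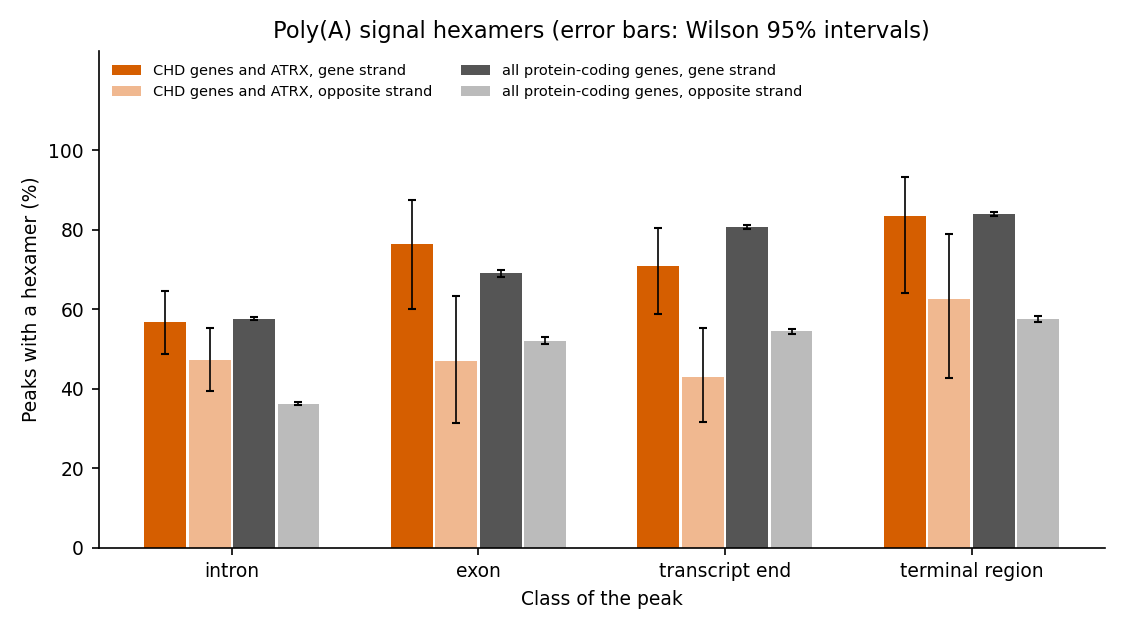
Share of peaks with at least 1 of 12 hexamers in the 100 bp before the 3′ edge, in percent, by class, for the strand of the gene and the opposite strand, with 95% Wilson intervals as error bars. In introns the CHD genes and ATRX had 56.8% on the gene strand and 47.3% on the opposite strand, and all protein-coding genes had 57.7% and 36.3%.

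A genomic stretch of A just past the 3′ edge is a sign that the primer may have bound the genome-encoded A instead of a tail. By the study's definition of a stretch, 25 bases with at least 22 A within 50 bp, 7 of 252 peaks had one (2.78%, 1.35 to 5.62), against 4.36% over all protein-coding genes. With at least 18 A it was 38 peaks, or 15.1% (11.19 to 20.02), against 21.4% over all protein-coding genes. Of the 38, 30 were intronic, against 21409 of 24086 over all protein-coding genes. CHD9 held 15 of the 38, ATRX 7 and CHD7 6, and CHD3, CHD4 and CHD5 had none among their 26 peaks. Of the 30 intronic ones, 22 had no hexamer either, against 14025 of the 21409 over all protein-coding genes. The study removed peaks that had a stretch of at least 22 A and no hexamer. Such peaks were kept in the main set here, and without them 248 of its 255 peaks were left.

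The local background also gives the density of reads along a gene. Taking the peaks in the first 25% and in the last 25% of each canonical transcript, the median was higher in the first part in 6 of the 10 genes, against 63.4% of detected genes of at least 20 kb. ATRX had the largest ratio, with 142 reads per 10 kb in the first part and 39 in the last. CHD2 followed with 303 and 109, then CHD3 with 737 and 358 and CHD9 with 144 and 77.0. In CHD2 the first part held 927 and 862 at peaks 1.93 and 3.65 kb from the start. The 10 kb around them reach back over peaks inside CHASERR. The rest of that part held 303, 82 and 78, so its ratio rests on the stretch next to CHASERR. CHD7 had the reverse, with 56 and 136, and so did CHD6 with 45 and 78.5. These parts held as few as 1 and 2 peaks in CHD5 and CHD3, the count covers both strands, and it includes the reads of the peaks themselves.

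**Figure D5:**
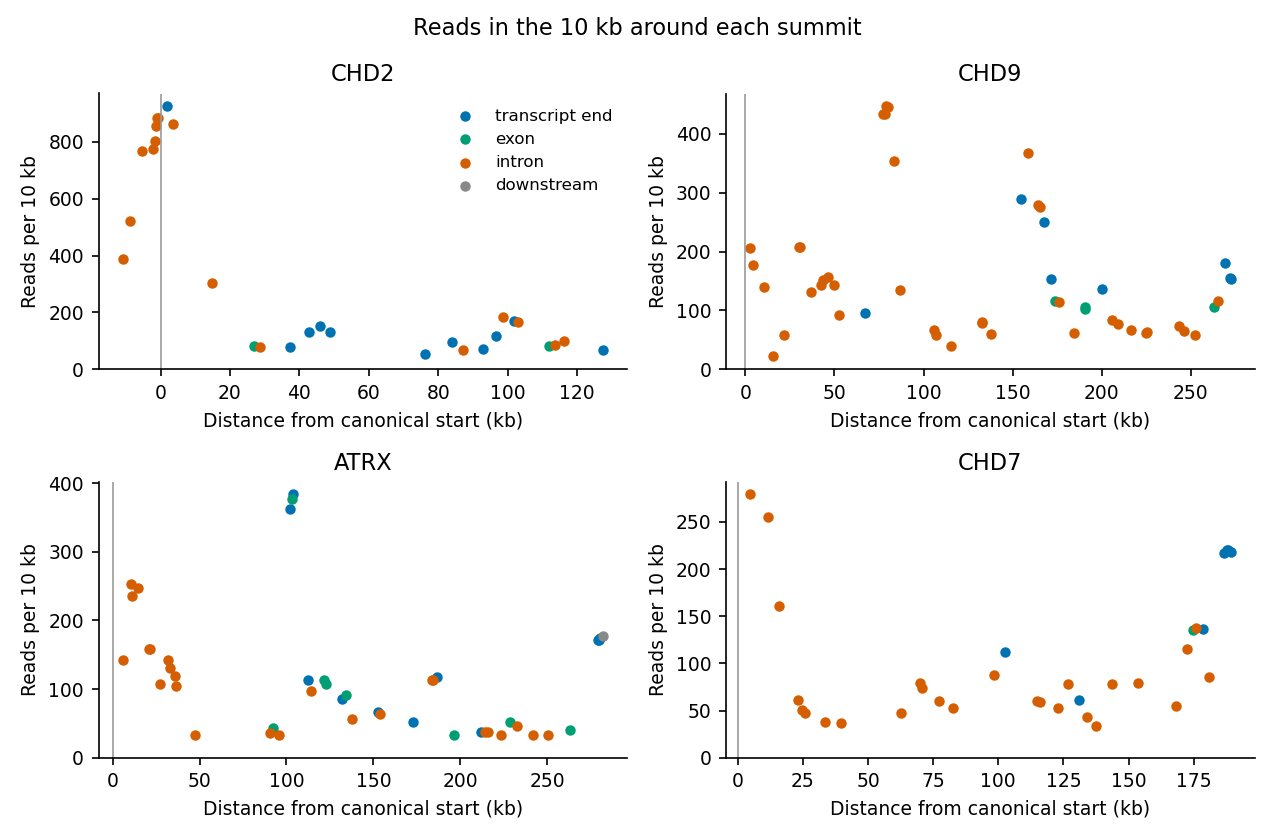
Reads in the 10 kb around each summit (vertical axis) against distance from the canonical start in kb for CHD2, CHD9, ATRX and CHD7, with 1 point per peak coloured by class. CHD2 falls from 927 reads near its start, where the 10 kb take in CHASERR peaks, to 67 at its end. ATRX has a second high point of 384 reads near 104 kb.

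Genes that work with these remodellers were read in the same way. The 15 partners of NuRD and of ATRX, among them the deacetylases HDAC1 and HDAC2, were all detected, and 11 had an intronic peak, with a median of 5 per gene, where 79.4% of detected genes with an intron had one. Their median length was 35.1 kb, and 6 of the 15 had a taller intronic than transcript-end peak, as did 27.6% of detected genes with an intron. MTA3, a NuRD subunit of 262 kb, had the most intronic peaks (38), and H3-3B, which encodes the histone variant that ATRX and DAXX handle, had the tallest transcript-end peak (94 reads). The 16 other SNF2-family ATPases chosen, none of them from SWI/SNF, were all detected with an intronic peak, at a median of 9 per gene and of 80.3 kb. Here 6 of the 16 had a taller intronic than transcript-end peak, to be read beside 27.6% of detected genes with an intron and 42.7% of those of at least 70 kb. Neither share is matched in length, as several of the 16 are shorter than 70 kb, down to 32.0 kb in RAD54L. EP400 had the most intronic peaks (23) and RAD54L the tallest transcript end (49 reads). Per 100 kb of intron there were 12.01 peaks in the CHD genes and ATRX, 15.2 in the partners, 14.8 in the other ATPases and 8.62 over detected genes with an intron. These pooled densities are not matched in gene length. The median length was 110 kb in the CHD genes and ATRX and 36.3 kb over detected genes with an intron, and longer genes have lower densities.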

How the data were processed

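Poly(A) 3′-seq of the 6 IMR-32 libraries was mapped to GRCh38 by the authors with STAR 2.5.1b, and MACS2 2.1.1 called 1 unstranded set of peaks on the merged reads, each extended to 100 bp, with no control. The deposited list gives for each peak a fold enrichment (ratio of pileup plus 1 to background plus 1), a −log10 p-value and a −log10 q-value, a score (not used here) and another value, the offset of the summit. Tool versions are from the submitters' processing notes.

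The fold and −log10 p-value that the authors deposited were inverted to give the reads at the summit and the background, and this step was checked on simulated data (largest misfit in the real list 0.000172). No summit exceeded 200 reads, the most that 1 read per start position and strand can give, so the heights count distinct start positions and are compressed for tall peaks. The background had a floor of 33.7 reads per 10 kb, met by 9 peaks of the main set. Annotation was Gencode release 44, which is later than the study's. A peak in several genes counts in each. Shares over all protein-coding genes are over such pairs and include the 10 genes.

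The 10 genes and the gene lists were chosen with earlier results of these data known. Named peaks are, for each gene, the tallest transcript-end and intronic peak and the intronic peak nearest the start. The terminal region, the coding-exon count, the CHASERR comparison, the limit on the distance from summit to edge and other peaks named were added after the values were seen. With 1 pooled value per peak, no test and no p-value is given. Intervals are 95% Wilson for shares and exact Poisson for reads. Alternatives were other cutoffs on q, windows, hexamers, A rules, gene sets and measures. Python 3.11.15, numpy 2.4.6, scipy 1.17.1, pandas 2.3.3 and pysam 0.24.0 were used.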

Additional observations from a re-analysis of the deposited data

How the results depend on the processing

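Of 61 alternative values, 47 stayed within 1.5 times the count or within the interval of the share. With −log10 q of at least 20 the peaks fell to 35, their intronic share to 20%, and those with an A stretch to 0%, while the hexamer share was 80% and the first-intron share 83.3%, on 6 peaks. There, 4 genes were above their bin's median and 3 had a taller intronic peak. Counting the canonical transcript alone gave an intronic share of 65.5%. The hexamer share was 25.4% for AATAAA alone, 37.7% for AATAAA or ATTAAA and 44.4% in a window ending at the summit. The A-stretch share was 15.1% at 18 A in 25 and 8.73% when either side of the edge was searched. With fold enrichment, 1 gene had a taller intronic peak. The rules on incomplete transcripts, on the terminal exon and on summits less than 100 bp from the edge (hexamer share 61.9%) were chosen after seeing the data and moved no value beyond these limits. In all 12 alternatives that gave a percentile, CHD6, CHD7 and CHD9 were above their bin's median, and CHD4 and CHD5 in none. No paired analysis was possible because no value belongs to a single library, so no replicate could be left out either.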
